A study of Homo sapiens with 6 samples.

Results

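Annexins and S100 proteins are small families through which cells read calcium at their membranes. Annexins bind acidic phospholipids when calcium rises, and they take part in membrane trafficking, membrane repair and, once outside the cell, in inflammation. S100 proteins carry EF-hand calcium-binding loops, usually work as dimers and act by docking onto partner proteins. The families meet in named complexes: S100A10 joins annexin A2 at the plasma membrane, and S100A11 binds annexin A1. In intestinal epithelium and in colorectal cancer many of them are abundant.

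The set described here is 4 annexin genes (ANXA1, ANXA2, ANXA3 and ANXA5) and 6 S100 genes (S100A4, S100A6, S100A10, S100A11, S100A14 and S100P), out of 19775 genes on the array. Every probe set was taken whose platform annotation names one of them, which gave 17 of 54675 probe sets. Of these, 16 name a member alone and 1 also names SNU13. Of the 16, 13 were detected, meaning that the mean of at least 1 RNA pool was 5 or more on the log2 scale, and all 10 genes had a detected probe set. Where a gene had several probe sets, the one with the highest mean over all arrays stands for it.

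The study measured tumours grown from HT-29, an established cell line of human colorectal adenocarcinoma, on 6 human arrays. Balb/c (nu/nu) mice, which lack T cells, received the cells at 6 to 8 weeks of age in the femoral region of each side. There were 3 groups: treated tumours, heated for 30 min with an electromagnetic field (modulated electro-hyperthermia) on day 18 and taken 4 h later; the unheated tumours that these same animals carried on their other side (opposite side); and tumours of control animals. No gene was altered in any group, and all groups shared the cell line and the host. The labels do not say whether control animals had a sham procedure, when their tumours were taken or how many animals were pooled. Whether control tumours matched the others in age is therefore not known. Each group was 1 pool of RNA on 2 arrays that the labels call technical replicates. No spread between animals can be had from such a design, so no test between conditions was made, no p-value is given, and every SD is that of the 2 arrays of a pool.

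A gene was counted as higher or lower between pools where the gap between means was 0.5 or more on the log2 scale (1.41-fold), every one of the 4 array pairs pointed the same way and neither array of the higher pool was under 5. A stricter count asked for a difference of at least 1 (2-fold). The RNA behaved as colorectal epithelium in part: 9 of 13 colon epithelium markers were detected, with EPCAM at 12.54 in the treated, 12.53 in the opposite-side and 12.38 in the control pool, whereas CDX1 and GPA33 were at the table's floor of 2.37 on every array and CDX2 and CDH17 lay below 5 in every pool. The heated pool carried the heat shock response. By the stricter count, 6 of 6 heat shock genes checked were higher in it than in control and than on the opposite side. Of all detected genes, 0.722% and 0.335% passed that count in either direction. HSPA6, an inducible HSP70, was at 8.71 in the treated, 5.82 in the opposite-side and 4.85 in the control pool. The opposite side also had HSPA6 and CRYAB above control by the 0.5 rule, where 2.41% of detected genes were. CRYAB, at 1.09, passed the stricter count there too. The median absolute difference over detected probe sets was 0.050 to 0.059 between arrays of a pool and 0.142 to 0.168 between arrays of different pools.

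ANXA1 and ANXA3 were the members that differed most, and they did so in both tumours of the heated animals. Each was higher in the treated pool and in the opposite-side pool than in the control pool, and the heated and the unheated side lay close to each other. The other 8 genes differed by 0.32 or less in every comparison on their main probe sets. The stretches upstream of these 2 genes are shown first because the genes moved together, and that of S100P because it had the lowest treated value relative to both other pools. Each is the 250 bases before the start of the gene in RefSeq (build GRCh38.p14), 5′ to 3′ on the strand of the gene, and capitals mark matches to the motifs listed after them.
ANXA1: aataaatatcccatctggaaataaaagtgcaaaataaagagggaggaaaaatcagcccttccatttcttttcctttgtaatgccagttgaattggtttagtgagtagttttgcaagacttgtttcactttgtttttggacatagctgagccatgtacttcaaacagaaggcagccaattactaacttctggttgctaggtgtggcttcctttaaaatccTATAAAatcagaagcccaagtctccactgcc
ANXA3: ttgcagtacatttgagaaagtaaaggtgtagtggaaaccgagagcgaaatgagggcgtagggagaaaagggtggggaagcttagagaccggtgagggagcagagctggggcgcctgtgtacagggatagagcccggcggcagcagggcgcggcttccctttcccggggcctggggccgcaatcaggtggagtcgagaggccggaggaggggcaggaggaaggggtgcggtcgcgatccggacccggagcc
S100P: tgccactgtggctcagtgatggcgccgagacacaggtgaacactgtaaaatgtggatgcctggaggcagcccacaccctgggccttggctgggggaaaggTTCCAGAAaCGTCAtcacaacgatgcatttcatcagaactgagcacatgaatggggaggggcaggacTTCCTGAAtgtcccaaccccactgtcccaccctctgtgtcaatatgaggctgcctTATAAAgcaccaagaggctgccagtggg

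The ANXA1 stretch lies at chr9:73151615-73151864 on the plus strand, the ANXA3 stretch at chr4:78551520-78551769 on the plus strand and the S100P stretch at chr4:6693628-6693877 on the plus strand. The motifs searched, on both strands, were the TATA box (TATAAA), the core of the heat shock element (GAANNTTC or TTCNNGAA), AP-1 (TGANTCA), TEAD (GGAATG) and the cyclic AMP response half-site (TGACG). The ANXA1 stretch held a TATA box whose first base lies 31 bases before the start, and no other motif. The ANXA3 stretch held none of them, and its GC content was 64.0%, against 38.4% for ANXA1. The S100P stretch held a TATA box, 2 heat shock element cores and a cyclic AMP response half-site, and the matches do not overlap. Among the 10 members, 4 stretches held a TATA box (10.7% of 35116 promoters of that length), 2 a heat shock element core (11.6%), 1 an AP-1 site (6.57%), 2 a cyclic AMP response half-site (21.2%) and 0 a TEAD site (11.9%). These are matches of letters within these windows and say nothing about binding.

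ANXA1 encodes annexin A1, a mediator that dampens inflammation when it is released and that acts on formyl peptide receptors. It read 9.72 and 9.75 on the treated arrays, 9.53 and 9.52 on the opposite-side arrays and 8.76 and 8.80 on the control arrays. The arrays of the pools did not overlap, and the 3 pools followed the order treated, opposite side, control. The treated pool averaged 9.73 ± 0.023 and the control pool 8.78 ± 0.029 (SD, 2 arrays each), a difference of 0.95 or 1.93-fold. The opposite-side pool, at 9.52 ± 0.0057, was 0.74 (1.67-fold) above control. The treated minus opposite-side difference was 0.21, which is larger than the spread between the arrays of each pool but less than 0.5. In bulk RNA, a change in the number of cells that express a gene and a change in its RNA per cell cannot be told apart, here and below.

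ANXA3 encodes annexin A3, another calcium-dependent phospholipid-binding protein. Its 2 treated arrays read 9.08 and 9.11, its opposite-side arrays 9.08 and 9.15 and its control arrays 8.32 and 8.35. The tumours of the heated animals overlapped with each other, and both lay above the control arrays. The treated minus control difference was 0.76 (1.70-fold) and the opposite-side minus control difference 0.78 (1.72-fold). Between the heated and the unheated side the difference was -0.015, with the 4 array pairs running between -0.07 and 0.04.

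**Figure D1:**
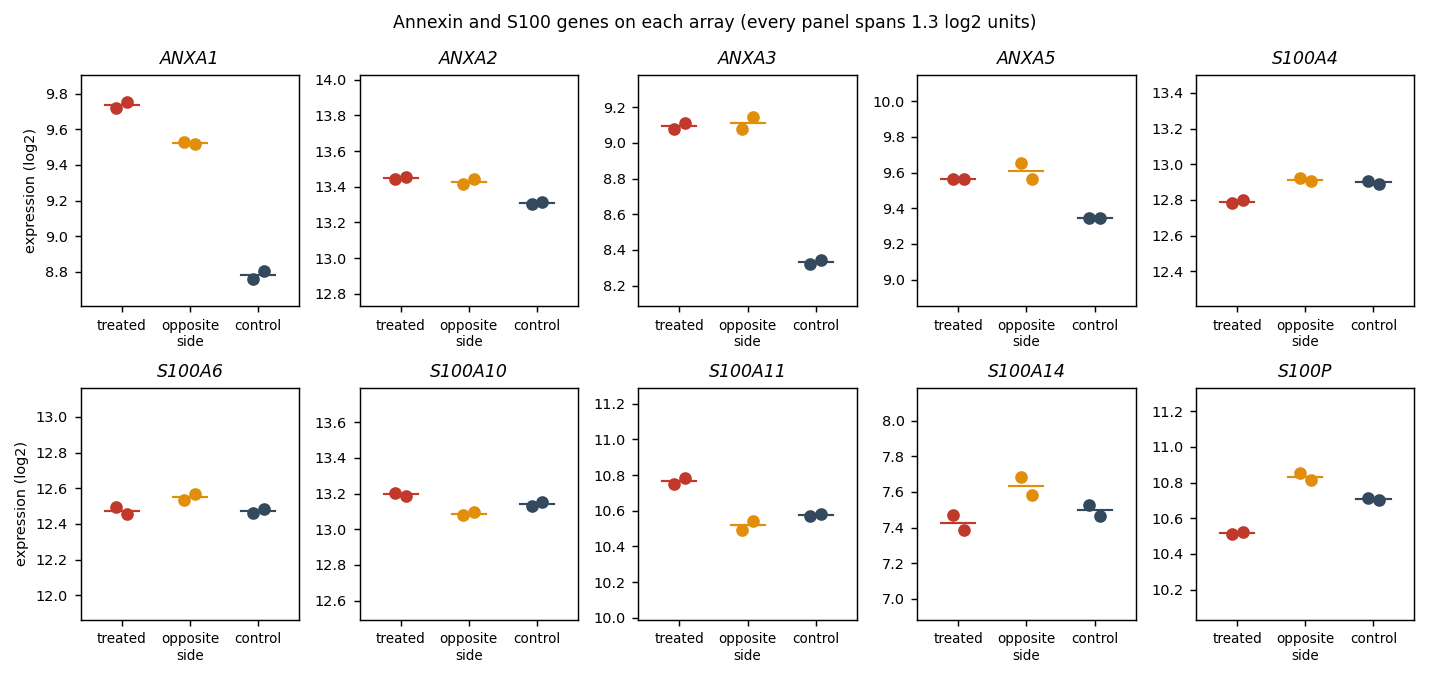
Expression (log2) of the 10 genes on each array, with points for arrays and a line for the mean of the 2 arrays of a pool, and with treated, opposite-side and control pools from left to right. ANXA1 and ANXA3 stand above control in both pools of the heated animals, and S100P is lowest in the treated pool, at 10.51 and 10.52.

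Read against the whole array, 2 of 10 members were higher in the treated pool than in control by the 0.5 rule, where 4.07% of 7204 detected genes were, and 0 were lower, where 2.86% were. In the opposite-side pool against control the counts were also 2 higher, ANXA1 and ANXA3 again, and 0 lower, where 2.41% and 4.29% of 7182 genes were. These comparisons share the control arrays, so a deviation of the control pool would enter both. The treated against the opposite-side pool, which does not use the control arrays, gave 0 higher and 0 lower, where 3.37% and 1.82% of 7155 genes were. By the 2-fold rule 0 of 10 members passed in any comparison, where 0.722% of genes did in treated against control, 0.335% in treated against opposite side and 0.404% in opposite side against control, counting either direction. For ANXA1, 55 of 7204 genes had a treated minus control difference as high or higher, and 48 of 7182 genes an opposite-side minus control difference as high or higher. For ANXA3 the same counts were 95 and 39. The members were chosen with earlier results of these data known, so setting them beside these shares describes them and tests nothing.

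Other measures moved along with ANXA1 and ANXA3. Of 14 fibroblast and matrix markers 4 were detected, and 3 of the 4 were higher in both pools of the heated animals than in control. Of all detected genes, 4.07% were higher in the treated and 2.41% in the opposite-side pool. Vimentin (VIM), an intermediate filament of mesenchymal cells, was 1.14 higher in the treated and 1.26 higher in the opposite-side pool, TAGLN, an actin-binding protein of smooth muscle and fibroblasts, 1.66 and 1.04, and the collagen gene COL1A1 0.67 and 0.50, while FN1 differed by 0.01 and -0.05. The summed level of the 14 markers, taken on the linear scale, was 839 to 850.0 on the treated, 710.1 to 726 on the opposite-side and 401 to 438 on the control arrays, with FAP and SPARC at the lowest value on every array and DCN, LUM, PDGFRB and POSTN below 3 in every pool. The control probe set for the 5′ part of ACTB mRNA, used to judge how intact the RNA is, was 1.12 higher in the treated and 1.27 higher in the opposite-side pool than in control, its 3′ probe set 0.23 and 0.15, and the 5′ probe set of GAPDH differed by -0.46 and -0.01. Of 13 skeletal muscle markers 4 were detected, and ACTA1 and MYL11 were higher by the 0.5 rule in the treated pool against control and against the opposite side. MYL11 was also higher on the opposite side against control, by 0.84, while TNNT1 was 0.45 below control in the treated and 0.31 below it in the opposite-side pool, and TNNT3 differed by 0.06 and 0. The means of ACTA1 lay below 5 in both the opposite-side and the control pool, so the rule could not count it between these pools. The 13 markers had a summed level of 346 to 358 on the treated, 294 on both opposite-side and 279 to 288 on the control arrays. Leukocyte (LYZ), endothelial (FLT1) and adipose and epidermal (KRT10) lists had 1 detected gene each, which differed by 0.23 or less in every comparison, and none of the 2 red blood cell markers with a probe set of their own was detected. The probes are human and the host is mouse, and whether these probe sets read mouse RNA was not checked. The markers therefore do not measure stroma, muscle or other cells of the host as such. The part of stromal or muscle RNA and of RNA quality in the ANXA1 and ANXA3 differences was not tested.

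The remaining annexins of the set differed in the same direction by less. ANXA2 encodes annexin A2, the partner of S100A10 and a cell-surface binding protein for plasminogen and its activator. It read 13.44 and 13.46 on the treated arrays, 13.41 and 13.44 on the opposite-side arrays and 13.30 and 13.31 on the control arrays. Both pools of the heated animals lay above control without overlap, by 0.14 and 0.12. The treated minus opposite-side difference was 0.02 on this probe set and -0.023 and -0.025 on the other 2 detected ones. Its sign turned under 4 of 10 alternatives. These include the alternative without _x_at or _s_at probe sets (described below), which leaves ANXA2 only an undetected one. The highest value of the whole table was 14.51, and whether signals so near to it are compressed was not tested. ANXA5 encodes annexin A5, the phosphatidylserine-binding protein used to stain dying cells. Its treated arrays read 9.56 and 9.56, its opposite-side arrays 9.65 and 9.56 and its control arrays 9.35 and 9.35, which puts treated 0.22 and opposite side 0.26 above control and leaves the heated and unheated side overlapping.

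All 4 annexins thus had both pools of the heated animals above the control arrays without overlap, with medians of 0.49 for treated and 0.50 for opposite side minus control. Over all detected genes the medians were -0.02 and -0.02, and 34.7% and 34% of genes were higher without overlap. Such non-overlap between the technical arrays of these pools is common, since 75.2% of genes showed it in either direction for treated against control. With 4 genes, the count describes these genes only.

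**Figure D2:**
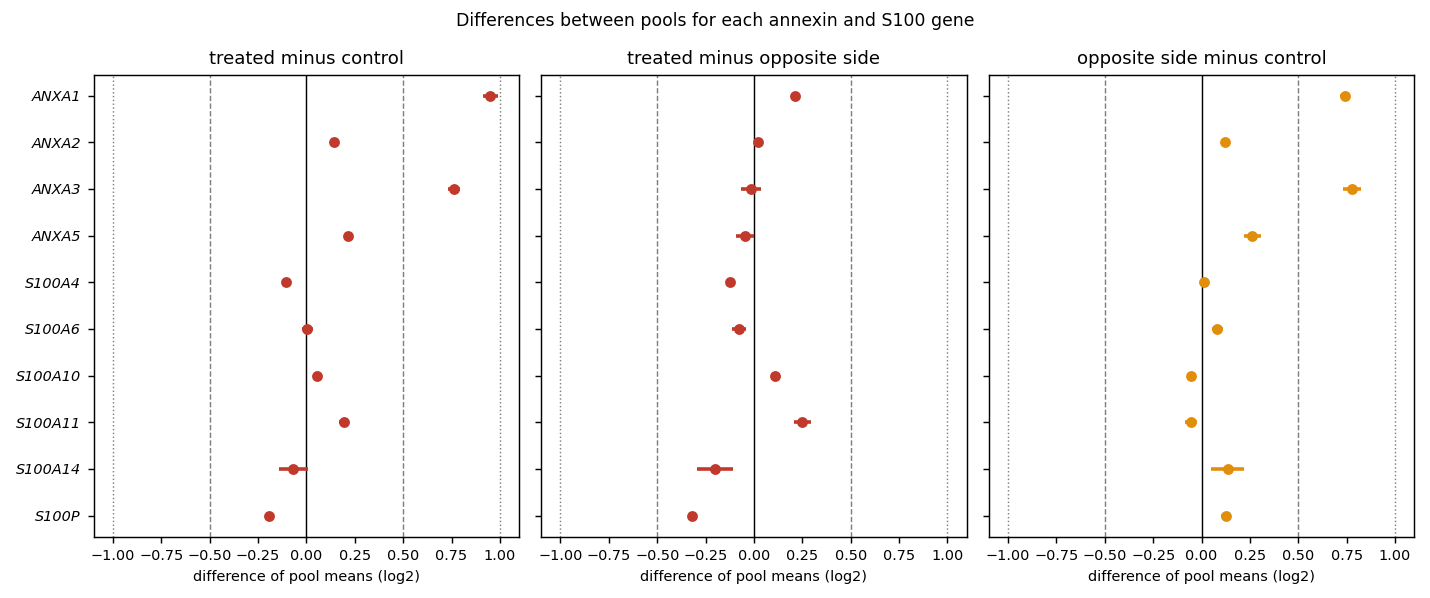
Difference of pool means (log2) for each gene in the 3 comparisons; points are differences of means, bars run from the lowest to the highest of the 4 array-to-array differences, dashed lines mark 0.5 and dotted lines 1. ANXA1 (0.95 and 0.74) and ANXA3 (0.76 and 0.78) pass 0.5 against control, and no gene passes it between the heated and unheated side.

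The 6 S100 genes did not share the pattern of the annexins. Their treated minus control differences ran from -0.19 to 0.19 with a median of -0.03, and their opposite-side minus control differences from -0.06 to 0.13 with a median of 0.05. S100A10, the annexin A2 partner whose EF-hands no longer need calcium, read 13.21 and 13.19 on the treated arrays, 13.08 and 13.09 on the opposite-side arrays and 13.13 and 13.15 on the control arrays. The treated arrays were highest without overlap, but by only 0.05 over control and 0.11 over the opposite side, the second of which turned negative with the spike-in scaling described below and with the mean of both probe sets. S100A11, which binds annexin A1, read 10.75 and 10.79 on the treated arrays, 10.49 and 10.54 on the opposite-side arrays and 10.57 and 10.58 on the control arrays. Of the 6 S100 genes of the set, S100A11 had the highest treated level relative to the other pools. It was 0.25 above the opposite side and 0.19 above control. Its opposite-side arrays lay just below control, or above it with the spike-in scaling.

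S100P, which binds ezrin inside the cell and the receptor AGER outside it, ran the other way. It read 10.51 and 10.52 on the treated arrays, 10.85 and 10.82 on the opposite-side arrays and 10.71 and 10.70 on the control arrays. The treated pool was lowest without overlap, 0.32 below the opposite side and 0.19 below control, and the opposite side was 0.13 above control. Of 7155 genes, 430 had a treated minus opposite-side difference as low as that of S100P or lower. S100P passed the 0.5 rule when the arrays were set to the same median of the spike-in control probe sets, where its treated minus opposite-side difference was -0.51. That scaling moved every treated minus opposite-side difference by -0.19, every opposite-side minus control difference by 0.175 and every treated minus control difference by -0.01. The treated minus opposite-side difference of ANXA1 became 0.02 with it.

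S100A14, an S100 protein of epithelial cells, read 7.47 and 7.38 on the treated arrays, 7.68 and 7.58 on the opposite-side arrays and 7.53 and 7.46 on the control arrays. The treated and control arrays overlapped, and the treated pool was 0.20 below the opposite side. S100A4, which binds non-muscle myosin and is linked to cell motility, read 12.79 and 12.80 on the treated arrays, 12.92 and 12.90 on the opposite-side arrays and 12.90 and 12.89 on the control arrays. The treated pool was lowest without overlap, by 0.12 and 0.11, while opposite side and control overlapped. With the spike-in scaling its opposite-side minus control difference became 0.19. S100A6 (calcyclin) read 12.49 and 12.46 on the treated arrays, 12.53 and 12.57 on the opposite-side arrays and 12.46 and 12.48 on the control arrays, and treated minus control was 0.0040 with overlapping arrays. For this gene treated minus control turned negative with the spike-in scaling, without control replicate 1 and without treated replicate 1. Over all alternatives the difference ran from -0.01 to 0.02.

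Over all 10 members, 8 did not overlap between treated and control arrays, 6 of them higher, 8 did not overlap between treated and opposite-side arrays, 4 of them higher, and 9 did not overlap between opposite-side and control arrays, 7 of them higher. The shares of all detected genes without overlap were 75.2%, 71.9% and 76.4%, and those higher without overlap 34.7%, 38.6% and 34%.

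Several genes had more than 1 probe set, and these did not always read alike. The second ANXA1 probe set lay at 3.93 in the treated, 3.81 in the opposite-side and 3.95 in the control pool, below detection, and did not show the difference of the first. The 3 detected ANXA2 probe sets are all of the _x_at kind, whose probes can also match related sequences, and their treated minus control differences were 0.14, 0.13 and 0.11. The fourth ANXA2 probe set lay between 2.39 and 2.41 in every pool. The second S100A6 probe set lay below 4 on every array. The second S100A10 probe set was detected and ran differently from the first: it read 6.50 and 6.42 on the treated arrays, 6.80 and 6.82 on the opposite-side arrays and 6.29 and 6.30 on the control arrays. It was thus highest on the opposite side, 0.52 above control, where it passed the 0.5 rule, and its treated minus opposite-side difference was -0.35, against 0.11 for the first. Which transcript the second probe set reports was not examined.

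**Figure D3:**
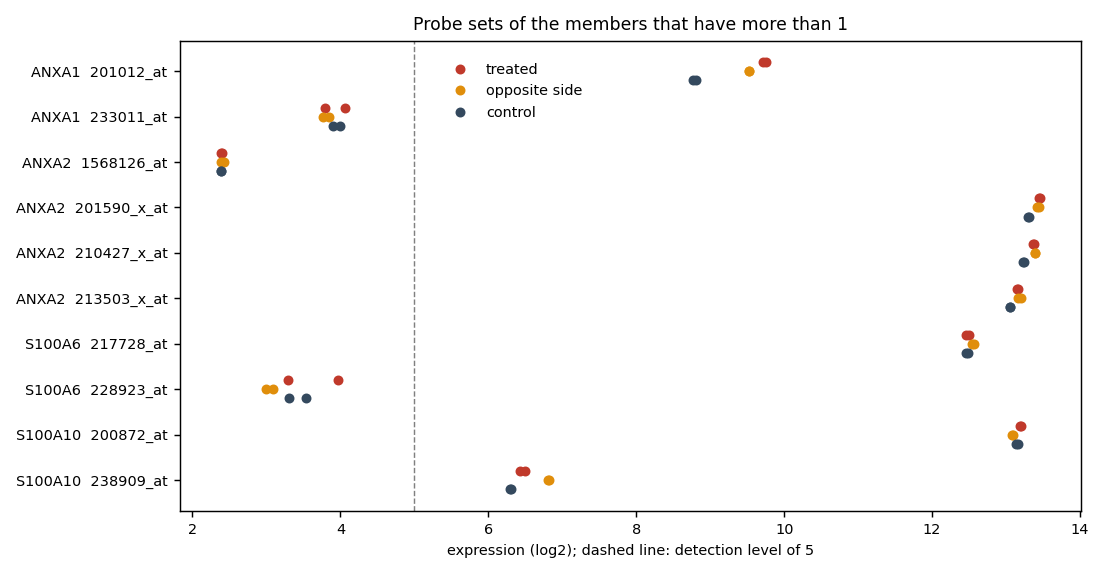
Expression (log2) on each array for every probe set of the 4 members that have more than 1, with treated, opposite-side and control arrays from top to bottom within each row and the detection level of 5 as a dashed line. The second probe sets of ANXA1 and S100A6 and 1 of ANXA2 lie below 5, and the second S100A10 probe set is highest on the opposite side.

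The rest of each family was taken from lists of genes. Of 9 other annexins 7 had a probe set of their own and 5 were detected. ANXA13, an annexin of intestinal epithelium, was lower in the treated pool by the 0.5 rule, with 8.28 and 8.17 on the treated arrays, 8.36 and 8.38 on the opposite-side arrays and 8.81 and 8.79 on the control arrays. Its differences were -0.57 for treated minus control and -0.43 for opposite side minus control, opposite in sign to those of ANXA1 and ANXA3. ANXA7 was 0.39 above control on the opposite side and 0.09 in the treated pool, and its other detected probe set gave 0.56 and 0.29. ANXA4, ANXA10 and ANXA11 differed by 0.10 or less in each comparison on their main probe sets, and ANXA6 and ANXA9 lay below 5. The 5 detected annexins had a median of 0.07 for treated and -0.03 for opposite side minus control, against -0.02 and -0.02 for all detected genes.

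Of 14 other S100 genes only S100A13 and S100A16 were detected, and neither passed the 0.5 rule in any comparison. S100A16 resembled S100A11, at 9.95 and 9.96 on the treated arrays, 9.69 and 9.74 on the opposite-side arrays and 9.66 and 9.67 on the control arrays, which is 0.29 above control and 0.25 above the opposite side. S100A13 was 0.14 below control in the treated pool and 0.30 below it on the opposite side. S100A8, S100A9 and S100A12, which are abundant in neutrophils and other myeloid cells, lay between 2.37 and 2.38 in every pool, next to the table's floor. With human probes, myeloid cells of the mouse host were not measured as such. The S100A genes detected lie on chromosome 1 in the order S100A10, S100A11, S100A6, S100A4, S100A16, S100A14 and S100A13, and their treated minus opposite-side differences in that order were 0.11, 0.25, -0.08, -0.12, 0.25, -0.20 and 0.15.

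The receptors through which annexin A1 and S100 proteins signal from outside the cell were not detected in any pool. FPR2 and FPR3, of the formyl peptide receptors, stood at the lowest value on every array, FPR1 at 2.77 in the treated, 2.79 in the opposite-side and 2.80 in the control pool, and AGER and TLR4 below 3 in each. The probes are human, and receptors on mouse host cells were not measured as such.

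Of 12 binding partners of annexin A2 and S100A10, 3 were detected and 0 passed the 0.5 rule in any comparison. AHNAK, a giant scaffold protein that the annexin A2 and S100A10 complex anchors at the membrane, was 0.23 above control in the treated pool and 0.35 on the opposite side. The urokinase receptor PLAUR differed by -0.26 and -0.20 and the kinase SRC, which phosphorylates annexin A2, by 0.13 and -0.17. Of the other detected PLAUR probe sets, 1 gave -0.11 and -0.10 and 1 gave 0.11 and 0.05, in the other direction. The proteases PLAT and PLAU and the calcium channels TRPV5 and TRPV6 lay below 5.

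Of 10 intracellular targets of S100 proteins 8 were detected, and 2 of the 8 were higher in the treated pool against control and also against the opposite side, with 0 lower. Of all detected genes, 4.07% and 3.37% were higher in these comparisons and 2.86% and 1.82% lower. CACYBP, the calcyclin-binding protein that S100A6 docks onto, read 9.0 and 9.04 on the treated arrays, 8.40 and 8.35 on the opposite-side arrays and 8.29 and 8.30 on the control arrays. It was 0.72 above control and 0.64 above the opposite side, with 0.08 between the opposite side and control. Its other detected probe sets were 0.78 and 0.48 above control, but only 0.46 and 0.38 above the opposite side, short of the rule. They put the opposite side 0.32 and 0.10 above control. FKBP4, an immunophilin partner of HSP90, was 0.57 above control and 0.77 above the opposite side, and STIP1, a co-chaperone that links HSP70 and HSP90, 0.24 and 0.50, just short of the rule. The other detected FKBP4 probe set gave 0.48, short of the rule, and 0.51. Ezrin (EZR), a target of S100P, was 0.27 above control in the treated pool and 0.24 on the opposite side. Its other detected probe sets gave 0.23, 0.18 and 0.34 for treated minus control. For opposite side minus control the same probe sets gave 0.08, 0.44 and 0.37. The list median was 0.18 for treated minus control and 0.03 for treated minus opposite side.

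Of 17 plasma membrane repair genes 11 were detected, with 1 higher and 1 lower in the treated pool against control, where 4.07% and 2.86% of all detected genes were. MYOF (myoferlin), a membrane fusion protein, read 8.33 and 8.35 on the treated arrays, 8.26 and 8.29 on the opposite-side arrays and 7.82 and 7.83 on the control arrays. Its differences of 0.51 and 0.45 against control, with 0.07 between the sides, were in both pools of the heated animals, and its other detected probe sets gave 0.20 and -0.11 for treated minus control. CAPN1, the large subunit of mu-calpain, was 0.63 below control and 0.58 below the opposite side, but its other probe set differed by -0.08 and -0.02. The list median was -0.03 for treated and -0.04 for opposite side minus control. Of 16 calmodulins and other EF-hand genes 11 were detected and 0 passed the rule in any comparison, with a median of -0.10 for treated and 0.03 for opposite side minus control. The largest treated minus control differences among them were -0.20 for PEF1, -0.20 for CIB1 and -0.17 for EFHD2.

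**Figure D4:**
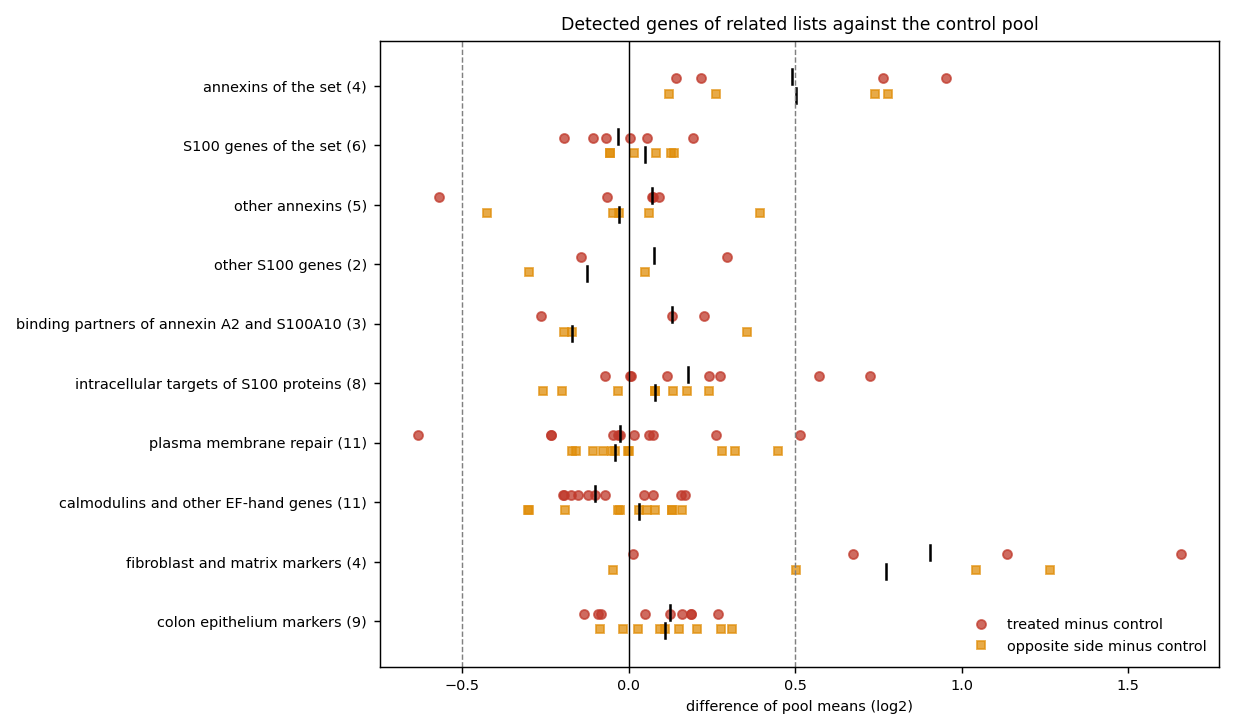
Difference of pool means (log2) against the control pool for the detected genes of each list, with circles for treated, squares for the opposite side, short black lines for list medians and dashed lines at 0.5; the number of detected genes is in brackets. Annexins of the set lie to the right of 0 in both comparisons, the S100 genes lie around 0, and 3 of the 4 fibroblast and matrix markers lie at or beyond 0.5 in both.

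The pattern of ANXA1, the member with the largest difference, was set beside that of the 7257 other detected genes by the distance between their pairs of differences against control (treated and opposite side, 3 pools in all). The nearest were TET2 (0.93 and 0.73), an enzyme that oxidises methylated cytosine, ID1 (0.92 and 0.73), an inhibitor of helix-loop-helix transcription factors, and TGFBI (0.98 and 0.70), a secreted matrix protein. TET2 had a control mean of 4.39, below detection. With 3 pools, many genes can lie close together by this measure.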

How the data were processed

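RNA of 3 pools, 2 technical arrays each, was measured with biotin-labelled cRNA on Affymetrix arrays. The table deposited by the authors holds log2 values, 1 per probe set, and GCRMA (background correction, quantile normalization and probe summary) is credited to the submitters' processing notes, with its version not given in the sources used here. The log2 scale was read from the values (2.37 to 14.51). On each array 27.8% to 28.5% of probe sets lay at the lowest value. Background correction to a shared lowest value removes differences between weak signals, hence the detection level of 5.

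Gene names came from the platform annotation, updated by Entrez identifier in RefSeq: 41097 of 54675 named 1 gene, 1801 several and 11777 none. Pool means were compared by size rules only. The members and gene lists were chosen with earlier results of these data known. Genes outside the set were named where they passed the 0.5 rule, or as the largest treated minus control differences of their list, and the other detected annexins, S100A13, FN1, TNNT3, EPCAM and undetected genes were named outside that rule to complete or illustrate their lists. Python 3.11.15, numpy 2.4.6, pandas 2.3.3 and matplotlib 3.10.9 were used. Arrays have no sequencing depth, and precision is limited by how few there are.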

Additional observations from a re-analysis of the deposited data

How the results depend on the processing

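The counts by the 0.5 rule against control (2 higher, ANXA1 and ANXA3, for treated and for opposite side) and the counts of 0 by the 2-fold rule held under the 13 alternatives run for each comparison: detection levels of 4 and 6, no agreement of array pairs, linear averaging, equal medians, quantile normalization, equal spike-in medians, the mean of detected probe sets, no _x_at or _s_at probe sets (S100A4 then has none, and ANXA2 only an undetected one), and each of the 4 arrays it uses left out. Several of these could not change the calls of ANXA1 and ANXA3. Their arrays all lay above detection levels of 4 and 6, and dropping array agreement can only add calls. Each of the 2 genes had 1 detected probe set, of neither the _x_at nor the _s_at kind, so the probe set alternatives left their values as they were. For treated against opposite side the count of 0 became 1 (S100P lower) with equal spike-in medians. The 40 detected spike-in probe sets, added in fixed amounts, had a median treated minus opposite-side difference of 0.33, taken probe set by probe set. The scaling instead equalised the median of each array, which moved the difference by -0.19 and so did not remove all of that gap. Over the alternatives, ANXA1 ran from 0.92 to 0.97 for treated minus control, 0.02 to 0.23 for treated minus opposite side and 0.71 to 0.92 for opposite side minus control, and ANXA3 from 0.74 to 0.78, -0.20 to 0.02 and 0.74 to 0.95. With the mean of its detected probe sets, S100A10 turned to 0.23 for opposite side minus control and -0.12 for treated minus opposite side. No paired analysis was possible because the results come from no test: each group is 1 pool, and the replicate numbers name technical arrays. Differences between animals cannot be judged from these arrays.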

Other observations

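The probe set annotated with both SNU13 and ANXA2 was left out of the comparisons. It read 9.48 and 9.49 on the treated arrays, 9.45 and 9.45 on the opposite-side arrays and 9.52 and 9.51 on the control arrays.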
